A study of Mus musculus musculus x Mus musculus castaneus with 7 samples.

Results

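Axon guidance ligands and receptors were followed through the reprogramming of mouse embryonic fibroblasts (MEFs) to induced pluripotent stem cells (iPSCs). The 70 genes were found by their symbols among the 24393 genes of the deposited table: ephrins and Eph receptors, semaphorins of classes 3 to 7 with plexins and neuropilins, Slit and Robo genes, and netrins with their receptors. They comprised 33 ligand genes, 35 receptor genes and 2 genes whose symbols the rule catches by their letters. The latter 2 were Unc50, which encodes a Golgi membrane protein, and Unc5cl, which encodes an Unc5-like death-domain protein without the netrin-binding part.

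As background, these families were named for steering growth cones, but they also set cell contact, repulsion and boundaries in epithelia, vessels and mesenchyme. Ephrins are membrane-bound ligands of the Eph receptor tyrosine kinases, and A-type ephrins mostly bind EphA while B-type ephrins mostly bind EphB receptors. Secreted class 3 semaphorins mostly act through a neuropilin paired with a plexin of type A, whereas membrane-bound semaphorins bind plexins directly. Slits bind Robo receptors, and netrins bind Dcc, neogenin (Neo1) and the Unc5 receptors.

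All cells were female and came from a cross of Mus musculus musculus and Mus musculus castaneus. RNA was sequenced in 7 libraries, 1 per group: cells at Day 2 of doxycycline, SSEA1+ cells of Days 8, 10, 13 and 15, SSEA1+/GFP+ iPSCs, and SSEA1+/GFP+ embryonic stem cells (ESCs). SSEA1 is a surface glycan of mouse pluripotent cells, and GFP is carried as a transgene on an X chromosome. Per the labels' protocols, MEFs carried lentiviral tetO-FUW-OSKM, which encodes Oct4, Sox2, Klf4 and cMyc, and FUW-M2rtTA, the activator that switches it on with doxycycline. They were sorted for GFP on either the active or the inactive X chromosome, and the labels do not give which one was used for each library. Induction was with 2 µg/ml doxycycline and 50 µg/ml ascorbic acid in serum medium with LIF. The iPSCs came from picked colonies after both agents were withdrawn. The ESCs, described as F121, have no culture conditions of their own in the labels.

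Each value below is 1 library, so there was no spread between replicates and no test between groups. Values are normalized counts, that is, reads assigned to a gene divided by a size factor for the library. Intervals after folds are 95% Clopper-Pearson intervals from recovered reads and cover counting error only. Where one library had 0 reads, 3 reads were used there in its place, and the fold is given as a lower bound ("at least"). Assigned reads ranged from 15370903 in iPSCs to 57021069 at Day 15. In bulk RNA, fewer cells of a type and less RNA per cell cannot be told apart.

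The Day 2 library held 0 reads of Pou5f1 (Oct4) and of Sox2, and its label names no SSEA1 sort. Fibroblast markers, whose 18 genes summed to 1412697 normalized counts at Day 2, were between 2055 and 111558 in the other libraries. Of genes above 256 normalized counts everywhere else, 1.67% had no read at Day 2 and 2.13% had none at Day 8, while the other 5 libraries missed at most 0.0299%. Values of 0 in those 2 libraries are given below with that in view. The cDNA was made from 500 pg of RNA, per the labels' protocols. Of the 70 genes, 67 reached 64 normalized counts (6 on the log2 scale) in at least 1 library. The 3 that did not were Dcc, the attractive netrin receptor, Ntn5 and the receptor Epha6. Guidance genes with reads in every library numbered 27, which is 40.3% of the 67, against 62.3% of all genes above the same filter. Exons of 8 of the 70 overlap a gene on the other strand, which this kit cannot separate.

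**Figure D1:**
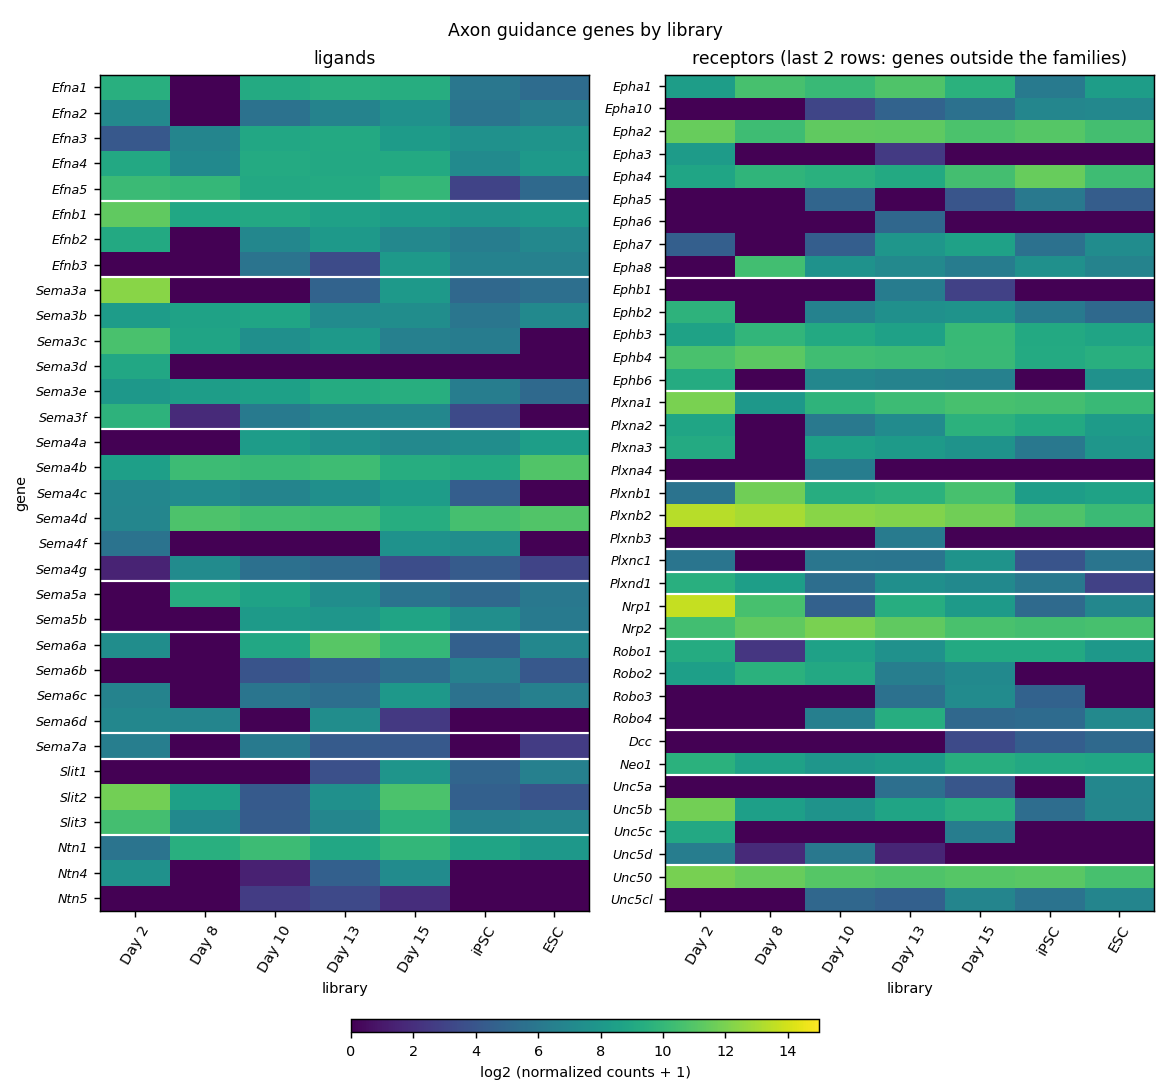
Colour gives log2 (normalized counts + 1) of each of the 70 genes (rows, grouped by family and parted by white lines) in each of the 7 libraries (columns), with ligands on the left and receptors on the right. Sema3a, Nrp1, Slit2 and Unc5b are brightest at Day 2, whereas Epha2, Nrp2 and Plxnb2 are bright in every column; the darkest cells are values of 0.

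Between Day 2 and iPSCs, the first and last stages of the course, guidance genes were mostly lower in iPSCs: of 55 compared, 28 were at least 4-fold lower and 12 at least 4-fold higher. Over all genes 18.6% were lower and 18.0% higher, so the lower share of guidance genes (50.9%) was above the background and the higher share (21.8%) near it. Their median difference was -2.20 on the log2 scale, with zeros kept or set to 3 reads, beside 0.02 over all genes compared. Ligands were lower in 16 and higher in 7 of 29, and receptors lower in 12 and higher in 5 of 25. At Day 2, 7 of the 12 higher ones lacked a read, as did 55.9% of all higher genes. Among the 39 guidance genes with reads in both libraries 5 were higher and 19 lower. Both shares were above the 9.40% and 15.5% of all genes, the lower one by more. With ESCs in place of iPSCs, a comparison that shares the Day 2 library, 24 of 58 genes were lower and 16 higher. Both shares were above those of all genes, 18.3% lower and 18.7% higher. Markers moved in the same comparison: all 18 fibroblast genes were lower, and all 15 pluripotency, 13 of 15 macrophage and 11 of 12 epithelial genes higher. The other epithelial gene compared, Krt19, was lower. Of neural markers 2 were higher and 2 lower among 5, and of endothelial markers 2 and 2 among 4. Their part in the result was not tested.

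**Figure D2:**
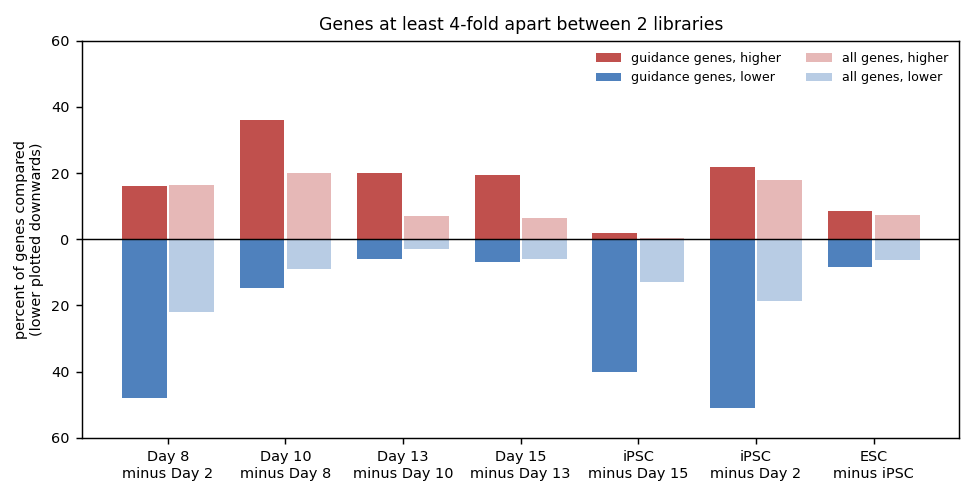
Bars give the percent of compared genes at least 4-fold higher (upwards) or lower (downwards) in each of 7 comparisons between 2 libraries, for guidance genes (dark) and for all genes (pale). Guidance genes exceed all genes most on the lower side for Day 8 minus Day 2 (48.0% against 21.9%), iPSC minus Day 15 (40.0% against 13.0%) and iPSC minus Day 2 (50.9% against 18.6%).

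Of the 6 class 3 semaphorins 4 were at their highest in the Day 2 library, and 5 were at least 4-fold lower in iPSCs. Sema3a, the repellent ligand that acts through neuropilin-1, had 5081 normalized counts at Day 2, then 0, 0, 26.4 and 280.4 in the SSEA1+ cells of Days 8, 10, 13 and 15, and 32.8 in iPSCs against 43.2 in ESCs. It had no read at Days 8 and 10 and was 155-fold lower (95% interval 92.2 to 284) in iPSCs than at Day 2. Sema3c had 1628 normalized counts at Day 2, then 428, 179, 278 and 93.5 in the SSEA1+ cells of Days 8, 10, 13 and 15, and 77.3 in iPSCs against 0 in ESCs, and was 21.1-fold lower (14.9 to 30.7) in iPSCs. Sema3d had 511 normalized counts at Day 2, then 0, 0, 0 and 0 in the SSEA1+ cells of Days 8, 10, 13 and 15, and 0 in iPSCs against 0 in ESCs. Reads of Sema3d were thus found at Day 2 alone among these 7 libraries, and it was at least 72.7-fold lower in iPSCs. Sema3f, which prefers neuropilin-2, had 826 normalized counts at Day 2, then 2.45, 73.0, 113 and 121.3 in the SSEA1+ cells of Days 8, 10, 13 and 15, and 9.37 in iPSCs against 0 in ESCs, a level 88.1-fold lower (34.3 to 324) in iPSCs. For Sema3b the values were 315 normalized counts at Day 2, then 393, 456, 149 and 161 in the SSEA1+ cells of Days 8, 10, 13 and 15, and 58.6 in iPSCs against 138 in ESCs, highest at Day 10, and iPSCs stood 5.37-fold lower (3.58 to 8.41) than Day 2. The sixth gene, Sema3e, which binds plexin D1 without a neuropilin, differed from the others: it had 254 normalized counts at Day 2, then 319.9, 363, 610.4 and 687 in the SSEA1+ cells of Days 8, 10, 13 and 15, and 79.7 in iPSCs against 34.6 in ESCs. Its highest value was at Day 15, and its difference between iPSCs and Day 2 stayed within 4-fold.

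The 2 neuropilins, co-receptors for class 3 semaphorins and for VEGF, followed different courses. Nrp1 had 13082 normalized counts at Day 2, then 1559, 24.1, 661 and 286 in the SSEA1+ cells of Days 8, 10, 13 and 15, and 35.1 in iPSCs against 124 in ESCs. Before division by exon length, the Day 2 value was the highest of any guidance gene in any library. Per kilobase of exon at Day 2, Plxnb2 (1381) and Unc50 (2499), which is outside the families, stood above Nrp1 (1337). Nrp1 was 372-fold lower (226 to 665) in iPSCs. Nrp2 had 1423 normalized counts at Day 2, then 2539, 4010.5, 2572 and 1649.8 in the SSEA1+ cells of Days 8, 10, 13 and 15, and 1467 in iPSCs against 1583 in ESCs, so its 7 values lay within 4-fold of each other and peaked at Day 10. Per kilobase of exon, Nrp1 made up 91.8% of the summed neuropilin level at Day 2, and Nrp2 made up 97.2% in iPSCs and 91.3% in ESCs.

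Of the plexins of type A, the signalling partners of neuropilins, Plxna3 alone was at least 4-fold lower in iPSCs than at Day 2. Plxna1 had 3997 normalized counts at Day 2, then 256, 874, 1246 and 1559.9 in the SSEA1+ cells of Days 8, 10, 13 and 15, and 1492 in iPSCs against 1160.3 in ESCs, lowest at Day 8 and within 4-fold between iPSCs and Day 2. Of its 9.05 kb of exon, Plxna1 overlaps Gm26811 on the other strand by 970 bases. Reads over those bases cannot be told apart without strand. Plxna3, on the X chromosome, had 576 normalized counts at Day 2, then 0, 365, 288 and 206 in the SSEA1+ cells of Days 8, 10, 13 and 15, and 63.3 in iPSCs against 230.1 in ESCs, and was 9.11-fold lower (6.20 to 13.9) in iPSCs. Plxna2 ranged from 0 at Day 8 to 788 at Day 15 and stayed within 4-fold between iPSCs and Day 2. Plxna4 had reads at Day 10 only (82.3 normalized counts).

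Plexins of type B, receptors of class 4 semaphorins, differed in opposite directions. Plxnb2 had 10665 normalized counts at Day 2, then 8389, 5190.2, 4551 and 3415 in the SSEA1+ cells of Days 8, 10, 13 and 15, and 1879 in iPSCs against 1195 in ESCs, lower in each successive library, and was 5.68-fold lower (5.28 to 6.10) in iPSCs than at Day 2. Plxnb1, the receptor of Sema4d, had 51.2 normalized counts at Day 2, then 3456, 650.0, 788 and 1575 in the SSEA1+ cells of Days 8, 10, 13 and 15, and 321 in iPSCs against 399 in ESCs. It peaked at Day 8 and was 6.27-fold higher (4.56 to 8.72) in iPSCs than at Day 2. Plxnb3, also X-linked, had reads at Day 13 only (74.2 normalized counts). Plxnd1, the receptor of Sema3e, had 718 normalized counts at Day 2, then 340.3, 41.2, 178 and 139.9 in the SSEA1+ cells of Days 8, 10, 13 and 15, and 63.3 in iPSCs against 6.48 in ESCs and was 11.3-fold lower (7.74 to 17.3) in iPSCs. Plxnc1, the receptor of Sema7a, was between 0 at Day 8 and 208 at Day 15, and neither of its values in this comparison reached 64 normalized counts.

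Membrane-bound semaphorins of classes 4 to 6 made up 4 of the 12 genes that stood higher in iPSCs. Sema4d (CD100) had 115 normalized counts at Day 2, then 1799, 1389, 1274 and 642 in the SSEA1+ cells of Days 8, 10, 13 and 15, and 1528 in iPSCs against 1945 in ESCs, and was 13.3-fold higher (10.9 to 16.2) in iPSCs than at Day 2. Sema4a had 0 normalized counts at Day 2, then 0, 311, 190.5 and 133 in the SSEA1+ cells of Days 8, 10, 13 and 15, and 159 in iPSCs against 342 in ESCs, and was at least 58.1-fold higher. Both were at their highest in ESCs. Sema4b ranged from 355 at Day 2 to 1985 in ESCs and stayed within 4-fold between iPSCs and Day 2. Sema4c, a ligand of plexin B2, had 123 normalized counts at Day 2, then 150.1, 109.5, 179 and 308 in the SSEA1+ cells of Days 8, 10, 13 and 15, and 21.1 in iPSCs against 0 in ESCs and was 5.85-fold lower (2.99 to 13.1); it overlaps D430040D24Rik on the other strand by 334 exonic bases. Sema4f was present at Day 2, Day 15 and in iPSCs (52.1, 197 and 159 normalized counts) and had no read in the other 4 libraries. Sema4g, at 1.83 at Day 2, peaked at Day 8 with 152 normalized counts.

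Class 5 semaphorins, which carry thrombospondin repeats, had no read at Day 2. Sema5b had 0 normalized counts at Day 2, then 0, 289, 238 and 429.6 in the SSEA1+ cells of Days 8, 10, 13 and 15, and 171 in iPSCs against 71.3 in ESCs, and was at least 62.4-fold higher in iPSCs. Sema5a, by contrast, was highest at Day 8 (660 normalized counts). It was lower in each of the next 4 libraries (397, 160, 51.7 and, in iPSCs, 32.8) and stood at 63.7 in ESCs. Of class 6, Sema6a, a ligand of plexins A2 and A4, had 162 normalized counts at Day 2, then 0, 505, 2239 and 996 in the SSEA1+ cells of Days 8, 10, 13 and 15, and 23.4 in iPSCs against 119.9 in ESCs. The Day 13 value was the highest, and iPSCs stood 6.91-fold lower (3.67 to 14.7) than Day 2. Sema6b had 0 normalized counts at Day 2, then 0, 14.0, 24.4 and 41.8 in the SSEA1+ cells of Days 8, 10, 13 and 15, and 96.1 in iPSCs against 16.2 in ESCs, and was at least 35.0-fold higher. Sema6d had 124 normalized counts at Day 2, then 114, 0, 160.2 and 4.64 in the SSEA1+ cells of Days 8, 10, 13 and 15, and 0 in iPSCs against 0 in ESCs, with no read at Day 10 and its highest value at Day 13, and was at least 17.7-fold lower. Sema6c stayed within 4-fold between iPSCs and Day 2, and ranged from 0 at Day 8 to 255 at Day 15. Sema7a, the only semaphorin anchored by a lipid, had 85.9 normalized counts at Day 2, then 0, 68.3, 18.6 and 17.4 in the SSEA1+ cells of Days 8, 10, 13 and 15, and 0 in iPSCs against 5.40 in ESCs and was at least 12.2-fold lower.

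Slit2 and Slit3 were high at Day 2 and Day 15 and low between. Slit2 had 3634 normalized counts at Day 2, then 370.5, 17.9, 181 and 1722 in the SSEA1+ cells of Days 8, 10, 13 and 15, and 23.4 in iPSCs against 14.0 in ESCs, and was 155-fold lower (84.3 to 324) in iPSCs than at Day 2. Slit3 had 1478 normalized counts at Day 2, then 136, 19.4, 119 and 806 in the SSEA1+ cells of Days 8, 10, 13 and 15, and 91.4 in iPSCs against 116 in ESCs, and was 16.2-fold lower (11.8 to 22.8). Among the SSEA1+ intermediates both had their lowest value at Day 10 and their highest at Day 15. Slit1 had no read at Days 2, 8 and 10 and peaked at Day 15 (229 normalized counts). Among the Robo receptors, Robo2 had 348 normalized counts at Day 2, then 751, 539.8, 86.0 and 139 in the SSEA1+ cells of Days 8, 10, 13 and 15, and 0 in iPSCs against 0 in ESCs. It was at least 49.6-fold lower in iPSCs than at Day 2. Robo1 had 602 normalized counts in the first library, 4.08 (5 reads) at Day 8 and 544 in iPSCs. Robo4, the Robo of endothelium, had no read at Days 2 and 8 and reached 641 at Day 13, and Robo3 peaked at Day 15 (153). At Day 13 all 9 endothelial markers had reads, from 3.91 (Cdh5, on 4 reads) to 2094 normalized counts (Pecam1). Pecam1 was higher in iPSCs (4095) and ESCs (3325). Esam was the 1 of 7 compared that was at least 4-fold higher at Day 13 than at Day 10. The list summed to 4326 at Day 13 and 4601 at Day 10, and its part was not tested.

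Netrins were divided, and 3 of the 4 Unc5 receptors were lower in iPSCs. Ntn1, the best known netrin, had 53.9 normalized counts at Day 2, then 707, 1224, 505 and 992 in the SSEA1+ cells of Days 8, 10, 13 and 15, and 433 in iPSCs against 255 in ESCs, and was 8.04-fold higher (5.96 to 11.0) in iPSCs than at Day 2. Ntn4, a netrin of basement membranes, had 194 normalized counts at Day 2, then 0, 1.55, 23.4 and 153 in the SSEA1+ cells of Days 8, 10, 13 and 15, and 0 in iPSCs against 0 in ESCs, and was at least 27.6-fold lower. The Unc5 receptors mediate repulsion and can trigger cell death in the absence of netrin. Unc5b had 3637 normalized counts at Day 2, then 351, 208, 437 and 712 in the SSEA1+ cells of Days 8, 10, 13 and 15, and 39.8 in iPSCs against 117 in ESCs and was 91.3-fold lower (57.0 to 157). Unc5c had 527 normalized counts at Day 2, then 0, 0, 0 and 81.3 in the SSEA1+ cells of Days 8, 10, 13 and 15, and 0 in iPSCs against 0 in ESCs and was at least 74.9-fold lower. Unc5d had 79.5 normalized counts at Day 2, then 2.45, 64.5, 1.95 and 0 in the SSEA1+ cells of Days 8, 10, 13 and 15, and 0 in iPSCs against 0 in ESCs and was at least 11.3-fold lower. Unc5a was the exception, with 0 in iPSCs and at Day 2 and its highest value in ESCs, on 112 reads. Neo1 was between 232 at Day 10 and 778 at Day 2 and within 4-fold between iPSCs and Day 2. Dcc had no read before Day 15 and reached 34.6 normalized counts in ESCs.

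**Figure D3:**
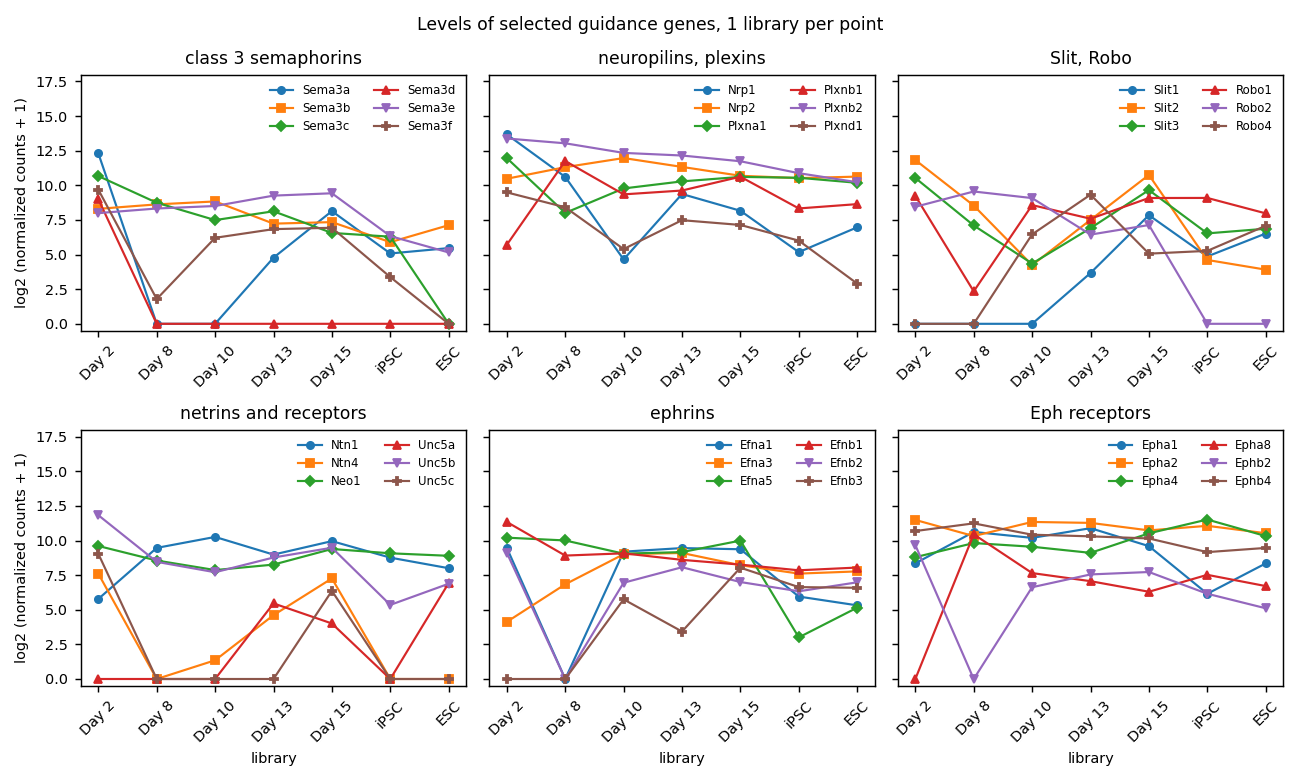
Lines give log2 (normalized counts + 1) of 36 guidance genes in the 7 libraries, 6 genes per panel and 1 library per point. Nrp1 stands at 13082 normalized counts at Day 2 and 24.1 at Day 10 while Nrp2 stays between 1423 and 4010.5, and Slit2 and Slit3 form a trough at Day 10.

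Ephrin ligands were divided. Efna1 had 709 normalized counts at Day 2, then 0, 585, 700.3 and 660.1 in the SSEA1+ cells of Days 8, 10, 13 and 15, and 60.9 in iPSCs against 38.9 in ESCs, and was 11.6-fold lower (7.88 to 17.9) in iPSCs. Efna5 had 1179 normalized counts at Day 2, then 1026, 529, 572 and 1018 in the SSEA1+ cells of Days 8, 10, 13 and 15, and 7.03 in iPSCs against 34.6 in ESCs, and was 168-fold lower (57.3 to 815), on 3 reads in iPSCs. Efna3 went the other way with 16.5 normalized counts at Day 2, then 113, 514, 548 and 297 in the SSEA1+ cells of Days 8, 10, 13 and 15, and 194 in iPSCs against 217 in ESCs, and was 11.8-fold higher (7.04 to 20.9); it overlaps Gm15998 on the other strand by 344 exonic bases. Efna4 and Efna2 stayed within 4-fold. Among B-type ephrins, Efnb1, which lies on the X chromosome, had 2590.1 normalized counts at Day 2, then 481, 538, 388 and 305 in the SSEA1+ cells of Days 8, 10, 13 and 15, and 229.6 in iPSCs against 264 in ESCs, and was 11.3-fold lower (9.22 to 13.9). Efnb2, the arterial ligand of EphB4, had 553 normalized counts at Day 2, then 0, 123, 268 and 127 in the SSEA1+ cells of Days 8, 10, 13 and 15, and 79.7 in iPSCs against 125 in ESCs, and was 6.94-fold lower (4.91 to 10.1). Efnb3 had 0 normalized counts at Day 2, then 0, 52.8, 9.77 and 262 in the SSEA1+ cells of Days 8, 10, 13 and 15, and 98.4 in iPSCs against 95.1 in ESCs, and was at least 35.9-fold higher in iPSCs than at Day 2.

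Eph receptors of type A included 4 higher and 2 lower genes. Epha2, an Eph receptor of epithelia, had 2867 normalized counts at Day 2, then 1277, 2592, 2473 and 1699 in the SSEA1+ cells of Days 8, 10, 13 and 15, and 2134 in iPSCs against 1475 in ESCs, so every library held at least 1277 and iPSCs differed from Day 2 by less than 4-fold. Epha4, which binds ephrins of both types, had 443 normalized counts at Day 2, then 901, 749, 551 and 1465 in the SSEA1+ cells of Days 8, 10, 13 and 15, and 2926 in iPSCs against 1279 in ESCs, and was 6.60-fold higher (5.94 to 7.34) in iPSCs. Epha8 had 0 normalized counts at Day 2, then 1396, 199.6, 133 and 77.8 in the SSEA1+ cells of Days 8, 10, 13 and 15, and 183 in iPSCs against 104 in ESCs, and was at least 66.6-fold higher. Epha10, whose kinase is held to be inactive, had 0 normalized counts at Day 2, then 0, 7.77, 26.4 and 47.0 in the SSEA1+ cells of Days 8, 10, 13 and 15, and 115 in iPSCs against 129.6 in ESCs, and was at least 41.9-fold higher. Epha5 had 0 normalized counts at Day 2, then 0, 28.7, 0 and 14.5 in the SSEA1+ cells of Days 8, 10, 13 and 15, and 65.6 in iPSCs against 20.5 in ESCs, and was at least 23.9-fold higher. On the lower side, Epha3 had 297 normalized counts at Day 2, then 0, 0, 4.88 and 0 in the SSEA1+ cells of Days 8, 10, 13 and 15, and 0 in iPSCs against 0 in ESCs, and was at least 42.3-fold lower. Epha1 had 325 normalized counts at Day 2, then 1572, 1166, 1898 and 772 in the SSEA1+ cells of Days 8, 10, 13 and 15, and 70.3 in iPSCs against 324 in ESCs, high in the SSEA1+ intermediates, and was 4.63-fold lower (3.19 to 6.97) in iPSCs than at Day 2. This call was lost with total reads without mitochondrial and ribosomal genes as the scale (-1.92 on the log2 scale). Of Epha1, 236 exonic bases overlap Zyx, a focal adhesion gene, on the other strand. The 4 Epha1 values from Days 8 to 15 were all at least 2-fold above Day 2, iPSCs and ESCs. Of 67 guidance genes only Epha1 showed this pattern, a share near the 1.59% of all genes. Taking Days 10 to 15 alone, Epha1 and Sema6a showed it, 2 of 67, a share near the 2.80% of all genes.

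Eph receptors of type B were lower or little different. Ephb2 had 814 normalized counts at Day 2, then 0, 97.9, 187 and 211 in the SSEA1+ cells of Days 8, 10, 13 and 15, and 70.3 in iPSCs against 33.5 in ESCs, and was 11.6-fold lower (8.05 to 17.3) in iPSCs. Ephb6, another receptor without kinase activity, had 589.7 normalized counts at Day 2, then 0, 123, 104 and 94.0 in the SSEA1+ cells of Days 8, 10, 13 and 15, and 0 in iPSCs against 192 in ESCs, and was at least 83.9-fold lower. Ephb4 was between 572 in iPSCs and 2415 at Day 8, and Ephb3 between 375 at Day 13 and 1124 at Day 15, both within 4-fold between iPSCs and Day 2. Ephb1 had reads only at Day 13 (79.1) and Day 15 (6.39).

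Levels of genes and families were set side by side after division by exon length, which makes them only roughly comparable. Summed over its members per kilobase of exon, the Unc5 family stood at 617 at Day 2 and 6.36 in iPSCs, 97.0-fold lower. Unc5b alone gave 94.1% of that sum at Day 2 and 100% in iPSCs, there on 17 reads. Class 3 semaphorins were at 906 and 35.8 (25.3-fold lower), Slits at 387 and 20.7 (18.6-fold lower) and neuropilins at 1457 and 127 (11.4-fold lower). Ephrin-B was 7.62-fold, plexin B 5.01-fold and ephrin-A 4.68-fold lower. Efnb1 gave 90.3% of the ephrin-B sum at Day 2 and 61.0% in iPSCs. EphA receptors differed little, at 788 at Day 2, 901 in iPSCs and 614 in ESCs. Class 4 semaphorins were at 115 at Day 2, 364 in iPSCs and 669 in ESCs, the ligand family with the highest summed level in iPSCs and in ESCs. Epha2 gave 77.9% of the EphA sum at Day 2 and 50.7% in iPSCs, Plxnb2 99.6% and 87.9% of the plexin B sum, and Sema4d 54.7% of the class 4 sum in iPSCs. Without Plxnb2 the plexin B sum was higher in iPSCs by 2.65 on the log2 scale, and without Nrp1 the neuropilin sum differed by 0.04. The sums depend on exon length, taken over all annotated exons of a gene, such as 25.4 kb for Slit2 and 6.07 kb for Slit3. Without division by length, 10 family sums counted as changed and 7 as unchanged.

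**Figure D4:**
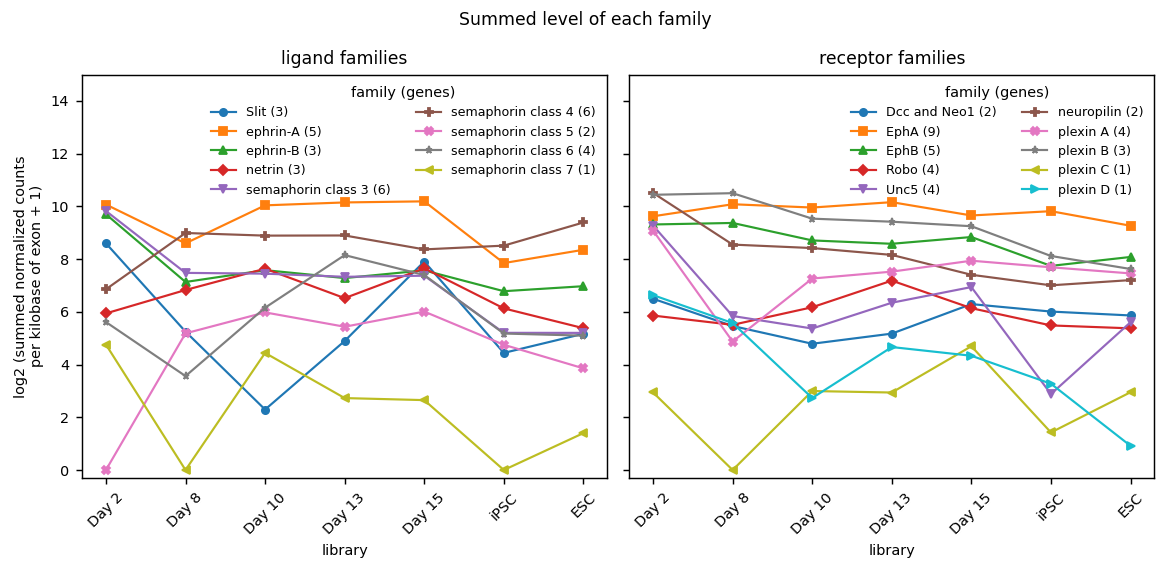
Lines give log2 of the summed normalized counts per kilobase of exon, plus 1, of each ligand family (left) and receptor family (right) in the 7 libraries, with the number of genes in brackets. EphA stays between 614 and 1142 throughout, while class 4 semaphorins stand above class 3 from Day 8 on.

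From Day 2 to Day 8, when SSEA1+ cells were first sorted, 24 of 50 guidance genes were at least 4-fold lower and 8 higher. Over all genes 21.9% were lower and 16.3% higher, against 48.0% and 16.0% of guidance genes, and their median difference was -1.93 beside -0.11. Time and the sort cannot be told apart here. Of the 24 lower genes 15 had no read at Day 8, as did 55.4% of all lower genes. Among guidance genes with reads in both libraries 9 of 33 were lower, against 12.2% of all genes. Sema3a was at least 2075-fold lower and Ephb2 at least 332-fold lower at Day 8. Lower genes with over 100 reads in both libraries were Nrp1 at 8.39-fold lower (8.00 to 8.80), Plxna1 at 15.6-fold lower (13.9 to 17.5), Unc5b at 10.4-fold lower (9.38 to 11.5), Slit2 at 9.81-fold lower (8.90 to 10.8), Slit3 at 10.8-fold lower (9.25 to 12.8) and Efnb1 at 5.39-fold lower (4.93 to 5.90). On the higher side Epha8 was at least 509-fold higher, Sema5a at least 241-fold higher, Plxnb1 67.5-fold higher (51.9 to 89.5), Sema4d 15.6-fold higher (13.0 to 18.8) and Ntn1 13.1-fold higher (10.1 to 17.4). Beside these, all 13 epithelial and all 15 macrophage markers were at least 4-fold higher at Day 8. Of 18 fibroblast markers 11 were lower and 1, Dcn, was higher (289 normalized counts at Day 2, 8747 at Day 8). Pluripotency markers were higher in 12 of 14 and neural markers in 5 of 8, with 2 lower in each list. The part of those cells in the result was not tested.

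Guidance genes without a read at Day 8 numbered 35 of 70. Of the 67 above the filter 47.8% had none, against 25.9% of all genes above it. Of those with at least 256 normalized counts in each other library, 0 of 9 guidance genes had none, against 2.13% of all such genes. Among genes with at least 64 normalized counts at both Day 2 and Day 10, 8 of 32 guidance genes (25.0%) had no read at Day 8, against 7.87% of all such genes. Those 8 were Efna1, Efnb2, Ephb2, Ephb6, Plxna2, Plxna3, Sema6a and Sema7a. With the lower of both flanking values under 1024 normalized counts, the shares were 29.6% and 13.5%.

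From Day 8 to Day 10, 17 of 47 guidance genes were higher (36.2%, background 20.0%) and 7 lower (14.9%, background 9.08%), with a median difference of 0.16 beside 0.05. No read was found at Day 8 for 12 of the 17, and for 65.6% of all higher genes. Without genes lacking a read 5 of 34 were higher, against 8.15% of all genes. Efna1 was at least 239-fold higher and Sema6a at least 206-fold higher. Robo1, with 5 reads at Day 8, was 93.1-fold higher (39.6 to 288). The lower genes were Sema6d, at least 49.0-fold lower, Nrp1, 64.8-fold lower (45.5 to 95.6), Slit2, 20.7-fold lower (13.7 to 33.1), Plxnd1, 8.27-fold lower (6.20 to 11.2), Epha8, 7.00-fold lower (6.13 to 8.01), Slit3, 7.02-fold lower (4.59 to 11.2) and Plxnb1, 5.32-fold lower (4.94 to 5.73). Of 15 macrophage markers 14 were lower too (summed level 46812 at Day 8, 2224 at Day 10), as were 10 of 15 fibroblast markers compared. The fibroblast marker Thy1 was higher. Of the macrophage list 4 genes, Spi1, Ctss, Mpeg1 and Plek, were at 0 at Day 10. The rest of the list had reads there, with Cd68 the highest at 905 normalized counts. The part of both marker lists was not tested.

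From Day 10 to Day 13, 10 of 50 guidance genes were higher (20.0%, background 7.08%) and 3 lower (6%, background 2.85%); the median was 0.14 beside 0.03. Nrp1, Slit2, Slit3 and Plxnd1, each lower in the step before, which shares the Day 10 library, were higher at Day 13: Nrp1 was 27.5-fold higher (19.2 to 40.7), Slit2 10.1-fold higher (6.54 to 16.4), Slit3 6.14-fold higher (3.97 to 9.85) and Plxnd1 4.32-fold higher (3.16 to 5.98). Sema6d was at least 68.8-fold higher, Ephb1 at least 34.0-fold higher, Epha7 11.0-fold higher (7.37 to 17.0), Robo4 7.37-fold higher (6.02 to 9.08) and Sema6a 4.43-fold higher (4.06 to 4.85). The tenth was Plxnb3, at least 31.9-fold higher. Plxna4 was at least 28.1-fold lower and Unc5d 33.0-fold lower (8.85 to 277) on 2 reads at Day 13, and Robo2 was 6.28-fold lower (5.02 to 7.93). Macrophage markers were higher in 13 of 15 (summed level 21157 at Day 13) and fibroblast markers in 4 of 15. Both moved with the step, and their part was not tested.

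From Day 13 to Day 15, 11 of 57 guidance genes were higher (19.3%, background 6.36%) and 4 lower (7.02%, background 6.03%), with a median of 0.17 beside 0.02. The 11 higher genes were 8 of the 28 ligands and 2 of the 27 receptors compared, with Unc5cl in neither class, and the difference between the classes was not tested. All 3 Slits were among them: Slit1 was 19.5-fold higher (11.0 to 38.1), Slit2 9.53-fold higher (8.21 to 11.1) and Slit3 6.77-fold higher (5.62 to 8.21). Sema3a was 10.6-fold higher (7.22 to 16.3), Sema4f at least 67.4-fold higher, Efnb3 26.8-fold higher (14.4 to 56.3), Ntn4 6.51-fold higher (4.28 to 10.3) and Unc5c at least 27.7-fold higher. Plxna2, Sema6c and Unc5cl completed the higher genes, between 4.80-fold and 6.21-fold. Lower genes were Plxnb3, at least 42.6-fold lower, Sema6d, 34.5-fold lower (17.1 to 81.2), Robo4, 19.7-fold lower (15.0 to 26.4) and Ephb1, 12.4-fold lower (6.57 to 25.8). The fibroblast markers summed to 34540 at Day 13 and 78131 at Day 15, with a median difference of 1.29 and none of 16 compared at 4-fold, while 11 of 15 macrophage markers were lower. Their part was not tested.

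In iPSCs against Day 15, 22 of 55 guidance genes were lower (40.0%, background 13.0%) and 1 higher (1.82%, background 0.246%), with a median of -1.40 beside -0.02. Efna5 was 145-fold lower (49.5 to 703), Slit2 73.5-fold lower (39.9 to 153), Sema6a 42.5-fold lower (23.1 to 88.8) and Unc5b 17.9-fold lower (11.1 to 30.8). Ntn4 was at least 21.7-fold lower and Robo2 at least 19.8-fold lower, both with no read in iPSCs. Epha1 was 11.0-fold lower (7.66 to 16.3), Efna1 10.8-fold lower (7.36 to 16.7), Epha7 8.24-fold lower (5.29 to 13.6) and Sema3e 8.62-fold lower (6.13 to 12.5). The gene that was higher was Epha5, 4.52-fold higher (2.54 to 8.08), on 28 and 25 reads. With ESCs in place of iPSCs 19 of 56 were lower and 2 higher, against 13.8% and 4.51% of all genes. Fibroblast markers were lower in 14 of 16 in the same comparison (9 of 18 at 0 in iPSCs) and epithelial markers in 7 of 13, and their part was not tested.

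Between ESCs and iPSCs, 4 of 47 guidance genes were higher in ESCs and 4 lower (8.51% each), near the 7.31% and 6.35% of all genes, and the median was 0.20 beside 0.02. At 2-fold, 14 of the 47 were higher and 10 lower, and both shares were above the 14.5% and 13.7% of all genes. Ephb6 was at least 27.4-fold higher, Unc5a at least 17.2-fold higher, Sema6a 5.12-fold higher (2.68 to 11.0) and Epha1 4.61-fold higher (3.16 to 6.96) in ESCs. Sema4f was at least 49.2-fold lower, Sema3c at least 23.9-fold lower, Plxnd1 9.76-fold lower (3.95 to 28.9) and Sema6b 5.93-fold lower (3.21 to 11.5). The iPSC reads behind these ranged from 0 to 68, the shallowest library. Beside them, 6 of 11 fibroblast and 5 of 13 epithelial markers were higher and 5 of 15 macrophage markers lower in ESCs, and their part was not tested.

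Taking each gene's highest library, 27 of the 67 guidance genes above the filter (40.3%) peaked at Day 2, against 23.9% of all 16711 genes above it. At Day 15 peaked 14 (20.9%, against 9.58%). The pluripotent libraries held few peaks: 3 in iPSCs (Epha4, Epha5 and Sema6b, 4.48% against 14.3%) and 5 in ESCs (Epha10, Sema4a, Sema4b, Sema4d and Unc5a, 7.46% against 14.5%). Day 8 held 6 (8.96% against 20.3%), Day 10 5 (7.46% against 8.61%) and Day 13 7 (10.4% against 8.71%).

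**Figure D5:**
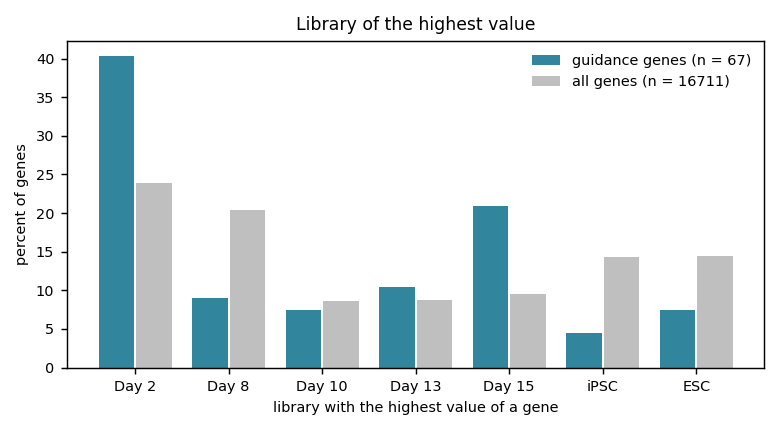
Bars give the percent of genes whose highest value fell in each library, for 67 guidance genes and for all 16711 genes that reached 64 normalized counts in at least 1 library. Day 2 holds 40.3% of guidance genes against 23.9% of all genes, and Day 15 holds 20.9% against 9.58%.

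Several guidance genes are neighbours in the genome (GRCm38, GENCODE M21), which allowed their courses to be set side by side. On chromosome 3, Efna1 (89271733 to 89281142), Efna3 (89313899 to 89322965) and Efna4 (89333390 to 89338028) lie within 32.8 kb and 10.4 kb of each other. All 3 had 514 to 700 normalized counts at Days 10 and 13, but at Day 2 Efna3 had 16.5 where Efna1 had 709 and Efna4 520.2. On chromosome 4, Ephb2 (136647539 to 136835988) and Epha8 (136929419 to 136956816) are 93.4 kb apart and had opposite values at Days 2 and 8. Ephb2 had 814 and 0 there, and Epha8 0 and 1396. On chromosome 9, Robo4 (37401897 to 37415115) and Robo3 (37415669 to 37433246) are 553 bases apart. Robo4 was highest at Day 13 and Robo3 at Day 15. Also on chromosome 9, Sema3b (107597674 to 107609229) and Sema3f (107681500 to 107710475) are 72.3 kb apart, with 393 and 2.45 normalized counts at Day 8. Chromosome 5 holds Sema3d (12383385 to 12588948), Sema3a (13125414 to 13602565), Sema3e (14025276 to 14256689) and Sema3c (17574281 to 17730268), of which Sema3e did not share the highest value at Day 2.

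Genes that act with these receptors were also compared between iPSCs and Day 2, where 18.0% of all genes were higher and 18.6% lower. Of 22 compared co-receptors, co-ligands and partners 3 were higher and 8 lower, with a median difference of -1.80. Dscaml1, an adhesion molecule, was at least 41.0-fold higher, Prtg (protogenin), a relative of Dcc, 49.0-fold higher (25.2 to 109), and the neural adhesion gene L1cam 19.9-fold higher (10.8 to 39.8). Cspg4 (NG2) was at least 798-fold lower, the Unc5 ligand Flrt2 at least 774-fold lower, and the VEGF receptors Flt1 and Flt4 were at least 307-fold lower and at least 219.6-fold lower. Of 55 cytoplasmic effectors 5 were higher and 17 lower, with a median of -1.21. Crmp1 and Dpysl5, collapsin response mediators downstream of Sema3a, were at least 141-fold higher and at least 97.4-fold higher, and Arhgap39 was 9.31-fold higher (7.51 to 11.6). The other 3 mediators of that family, named after their values were seen, did not follow: Dpysl2 was 17.3-fold lower (14.7 to 20.4), Dpysl3 6.87-fold lower (6.27 to 7.55), and Dpysl4 stayed within 4-fold. Mical2, of a family of actin oxidases that bind plexins, was at least 1013-fold lower, the small GTPase Rras at least 81.3-fold lower, Ngef (ephexin), an exchange factor bound by EphA4, at least 31.9-fold lower and the exchange factor Trio, which acts downstream of Dcc, 31.8-fold lower (18.9 to 58.3). Crmp1 had 0 normalized counts at Day 2, then 3014, 4251, 3603 and 1435 in the SSEA1+ cells of Days 8, 10, 13 and 15, and 387 in iPSCs against 1395 in ESCs. The 12 neural markers summed to 12906 normalized counts at Day 2, 37767 at Day 8, between 8569 and 18370 at Days 10 to 15, 15411 in iPSCs and 15359 in ESCs. Stmn2 led that sum at Day 8 and in iPSCs (29424 and 10533), whereas Dcx had reads at Day 15 alone (36.6). The part of such cells was not tested.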

How the data were processed

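Per the submitters' processing notes, the authors used FastQC, STAR 2.5.3a and featureCounts with mm10 (GRCm38.p5); the annotation and the method of the size factors are not given in the sources used here. The authors deposited 1 table of log2 values, which hold log2 of a library's size-factor-normalized count plus 1, for 24393 genes in 7 libraries of 1 per group, with counts not split by allele. Undoing the log2 gave whole reads for 100% of values (tolerance 0.01 of 1 read), so depth per library is known, from 15370903 to 57021069 assigned reads. Total RNA was made into cDNA and Nextera XT libraries per the labels' protocols; this kit does not mark strand.

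From these values, differences on the log2 scale were computed in Python 3.11.15 (pandas 2.3.3, SciPy 1.17.1). A gene was compared where the higher library reached 6 (64 normalized counts) and was called at a difference of at least 2 (4-fold). Intervals are 95% Clopper-Pearson on the split of the reads of both libraries; zeros were set to 3 reads for bounds. With 1 library per group no test between groups was run. Exon lengths, coordinates and overlaps came from GENCODE M21, to which all 70 symbols matched (23485 of all). The 7 comparisons were fixed with 8 lists of related genes and markers, and members and lists were chosen with earlier results of these data known. Values in all libraries are given for members called in iPSCs against Day 2, and, for the other comparisons, for at least the 2 furthest apart in each direction. One result on a downstream gene is not reported here. Other members named, such as Nrp2 and Epha2, complete their families. Scripts were tested on simulated data. Alternatives were other scaling (TMM factors, total reads without mitochondrial and ribosomal genes), filters, fold thresholds, zero-read genes left out, thinned reads and neighbouring libraries. For family sums they were no division by length and leaving out the highest member. Leaving out Unc50 and Unc5cl was added after the data were seen.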

Additional observations from a re-analysis of the deposited data

How the results depend on the processing

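No paired analysis was possible because each group had 1 library and no comparison came from a test; for the same reason no replicate could be left out. Percentages in brackets are the shares of all genes compared under the same setting. TMM factors, thinning to the smallest library and leaving out Unc50 and Unc5cl (chosen after seeing the data) kept each of the 14 counts of guidance genes within 1.5 times. Total reads without mitochondrial and ribosomal genes as the scale changed the size factors. On the log2 scale their ratio shifted by 0.35 at Day 8 and 0.28 in iPSCs, both against Day 2. Epha1 lost its call in iPSCs against Day 2. The shift was -0.16 in iPSCs against Day 15, where the 1 higher gene, Epha5, became 0 of 55 (0.098%). TMM factors shifted the ratio by 0.11 at Day 10 against Day 8. With zero-read genes left out, lower genes at Day 8 against Day 2 went from 24 to 9 of 33 (12.2%), higher genes at Day 10 against Day 8 from 17 to 5 of 34 (8.15%) and in iPSCs against Day 2 from 12 to 5 of 39 (9.40%), and ESCs against iPSCs had 2 higher (4.62%) and 2 lower (3.86%) of 43. With no filter, 27 of 58 were higher at Day 10 against Day 8 (31.9%), 17 of 66 higher (15.3%) and 5 lower (8.13%) at Day 13 against Day 10, 19 of 64 higher in iPSCs against Day 2 (25.2%), and 7 of 58 lower in ESCs against iPSCs (13.3%). With a filter at 8, 8 of 34 were higher at Day 10 against Day 8 (11.2%), 3 of 33 higher (2.74%) and 1 lower (0.930%) at Day 13 against Day 10, 5 of 36 higher (2.65%) and 1 lower (3.09%) at Day 15 against Day 13, 0 of 32 higher (0%) and 13 lower (7.42%) in iPSCs against Day 15, 4 of 37 higher in iPSCs against Day 2 (12.3%), and 1 of 19 higher (2.37%) and 0 lower (2.21%) in ESCs against iPSCs. Of 48 genes whose highest value reached 8, peaks fell at Day 13 in 4 (7.34%), at Day 15 in 7 (6.77%), in iPSCs in 1 (14.8%) and in ESCs in 3 (13.4%). At 2-fold, 7 of 50 were lower at Day 13 against Day 10 (9.51%), 17 of 57 higher (14.6%) and 11 lower (13.1%) at Day 15 against Day 13, 5 of 55 higher in iPSCs against Day 15 (7.83%), and 14 of 47 higher (14.5%) and 10 lower (13.7%) in ESCs against iPSCs. With Day 2 in place of Day 8, Day 10 had 10 of 53 higher (17.9%) and 19 lower (13.9%); with Day 15 in place of iPSCs, ESCs had 2 of 56 higher (4.51%) and 19 lower (13.8%), so that 2 were also higher with ESCs in place of iPSCs against Day 15. Without its highest member, the log2 ratio of iPSCs over Day 2 turned positive for the summed levels of class 6 semaphorins (0.14), neuropilins (0.044) and plexin B (2.65). Of the other family sums, 6 counted as changed without that member and 3 as unchanged. Without division by exon length, 10 family sums counted as changed and 7 as unchanged. Beyond the construction of each alternative, the cause was not tested. The iPSC library limits depth, since 1 read there is 2.34 normalized counts.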
